A study of Mus musculus with 6 samples.

Results

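The genes of V(D)J recombination were followed in 6 primary thymic lymphomas, 1 microarray per tumour. Members were all probe sets whose only gene symbol in the platform annotation was Rag1, Rag2, Dntt, Arpp21, Dclre1c, Prkdc, Xrcc5, Xrcc6, Lig4 or Xrcc4, which gave 17 of the 45101 probe sets on the array. A probe set is a group of short probes that read 1 transcript region, mostly near its 3' end. The 17 probe sets represented 9 of the 10 genes, and Dclre1c was not analysed here. All 17 passed the filter on dim values, which kept 27022 probe sets. The label holds for 9 of the 10 genes as parts of the recombination and joining machinery. Arpp21 is an RNA-binding phosphoprotein of thymocytes and neurons and is not a component of that machinery.

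Both groups shared 2 copies of IkL, a hypomorphic Ikaros allele (IkL/L), and the CD4-Cre transgene, so neither group had normal Ikaros or lacked Cre. The control group, IkL/L Notch1+/+ CD4-Cre+, held 3 lymphomas of mice aged 18 to 20 weeks. The other group, IkL/L Notch1f/f CD4-Cre+, held 3 lymphomas of mice aged 8 to 10 weeks, in which Cre can delete the loxP-flanked (floxed) part of Notch1. CD4-Cre is driven by regulatory sequence of the Cd4 gene and acts in developing thymocytes. Genotype and age differed together and cannot be told apart. The cells were collected from disrupted tumours with no sorting step named, so host cells could be present.

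V(D)J recombination assembles the genes of T and B cell receptors from separate gene segments. RAG1 and RAG2 form the recombinase that cuts DNA beside the segments. Non-homologous end joining (NHEJ) then repairs the cuts. The Ku heterodimer (XRCC6 with XRCC5) binds the DNA ends and recruits the kinase DNA-PKcs (Prkdc), which activates the nuclease Artemis (Dclre1c). Terminal deoxynucleotidyl transferase (Dntt) adds bases without a template, and DNA ligase IV (Lig4) with XRCC4 seals the joint. In the thymus this machinery works in immature thymocytes. RAG-mediated deletions at the 5' end of Notch1 are also known from mouse T cell leukaemias, and Ikaros is known to bind regulatory sequence of Dntt.

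The sequences around the transcription starts are shown for the recombinase pair, for Dntt and for Arpp21 and Xrcc6, because these genes carry the results below. Each is the 300 bases of RefSeq (build GRCm38.p6) that run from 250 before to 50 after an annotated start, written 5' to 3' on the strand of the gene, with the start after the first 250 bases. For Arpp21, which has 9 such windows, the most upstream one is shown. Capitals mark matches on either strand to an E-box (CANNTG, bound by E proteins), an Ikaros core (TGGGAA) or a Runx core (TGTGGT).
Rag1, chr2:101649483-101649782, minus strand: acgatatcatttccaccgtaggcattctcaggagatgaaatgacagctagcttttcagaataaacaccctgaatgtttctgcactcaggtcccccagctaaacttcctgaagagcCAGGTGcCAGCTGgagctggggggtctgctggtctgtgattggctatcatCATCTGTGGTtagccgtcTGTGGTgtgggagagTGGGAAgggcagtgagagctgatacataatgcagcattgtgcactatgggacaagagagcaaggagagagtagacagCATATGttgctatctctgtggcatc
Rag2, chr2:101624462-101624761, plus strand: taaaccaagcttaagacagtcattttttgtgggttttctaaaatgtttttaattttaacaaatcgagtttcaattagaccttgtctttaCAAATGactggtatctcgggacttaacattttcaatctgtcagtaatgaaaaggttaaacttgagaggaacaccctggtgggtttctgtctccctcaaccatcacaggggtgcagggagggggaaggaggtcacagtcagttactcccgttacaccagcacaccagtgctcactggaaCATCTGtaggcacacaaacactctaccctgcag
Dntt, chr19:41029025-41029324, plus strand: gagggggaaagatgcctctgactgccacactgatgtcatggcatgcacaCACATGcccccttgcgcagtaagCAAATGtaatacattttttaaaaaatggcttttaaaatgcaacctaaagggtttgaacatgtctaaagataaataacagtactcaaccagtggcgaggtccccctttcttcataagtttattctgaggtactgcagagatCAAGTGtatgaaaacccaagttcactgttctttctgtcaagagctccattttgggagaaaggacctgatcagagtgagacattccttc
Arpp21, chr9:112233673-112233972, minus strand: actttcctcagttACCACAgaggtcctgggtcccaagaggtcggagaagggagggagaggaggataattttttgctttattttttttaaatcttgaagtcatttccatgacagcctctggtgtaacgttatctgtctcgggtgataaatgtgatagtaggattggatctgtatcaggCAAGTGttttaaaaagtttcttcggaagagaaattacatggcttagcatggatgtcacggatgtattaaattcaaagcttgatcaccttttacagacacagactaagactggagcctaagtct
Xrcc6, chr15:82016119-82016418, plus strand: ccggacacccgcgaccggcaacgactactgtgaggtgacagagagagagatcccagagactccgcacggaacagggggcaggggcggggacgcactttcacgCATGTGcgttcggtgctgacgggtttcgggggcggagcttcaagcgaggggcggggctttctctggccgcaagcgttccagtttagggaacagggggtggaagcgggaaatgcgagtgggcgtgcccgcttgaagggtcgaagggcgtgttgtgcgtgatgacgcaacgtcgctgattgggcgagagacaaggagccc
Rag1 and Rag2 are adjacent genes on opposite strands of chromosome 2. The Rag1 window held 4 E-boxes, 2 Runx cores and 1 Ikaros core. The first Runx core, from base 170 to 175, shares its first 2 bases with the E-box from base 166 to 171. The Ikaros core spans bases 199 to 204. The Rag2 window held 2 E-boxes, the Dntt window 3, and the shown Arpp21 window 1 beside 1 Runx core. The Xrcc6 window held 1 E-box. An E-box was found in 72.3% of 32851 RefSeq start windows of this length, an Ikaros core in 25.6% and a Runx core in 16.8%. Of the 9 member genes with a window, 8 had an E-box, 2 an Ikaros core (Rag1 and Lig4) and 2 a Runx core (Rag1 and Arpp21). A gene was counted if any of its windows had the motif, with 9 windows for Arpp21 and 2 for Lig4. The shares above are of single windows, so the counts of genes cannot be set directly against them. All marked motifs are letter matches, and no binding was measured.

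Values are MAS5 signal intensities in arbitrary units, with each array scaled to the same trimmed mean. The groups were compared on log2(intensity + 16) with limma over all 27022 tested probe sets, Notch1f/f minus Notch1+/+, and folds on this scale understate differences of dim probe sets. None of the 17 member probe sets passed an adjusted p of 0.05 in limma, where 0.0185% of all tested probe sets did (0.00740% higher and 0.0111% lower in Notch1f/f tumours). Their adjusted p-values ran from 0.165 to 0.917. An unadjusted limma p under 0.05 was found for 5 of the 17, all lower in Notch1f/f tumours, against 13.5% of all tested probe sets (5.94% higher and 7.60% lower). The groups did not overlap for 4 of the 17, which were lower in Notch1f/f tumours, against 10.4% of all probe sets in that direction and 18.6% in either. No member had higher values in every Notch1f/f tumour, where 8.13% of all probe sets did. The 4 belong to only 2 genes, Arpp21 and Xrcc6, with 2 probe sets each. Of the 17, 10 had a log2 difference below 0 and 7 above, and 55.0% of all tested probe sets were below 0. The median difference of the members was -0.12, and that of all tested probe sets -0.04.

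**Figure D1:**
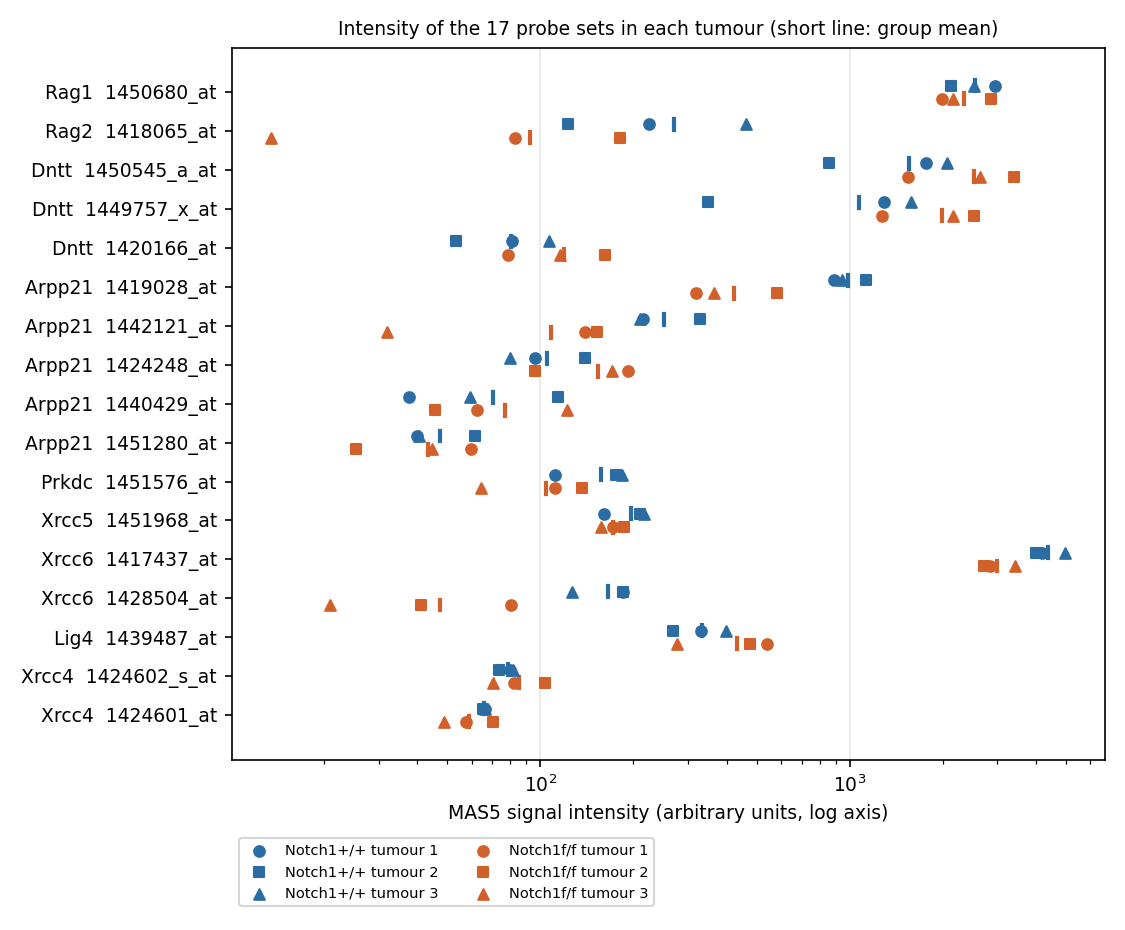
MAS5 signal intensity (log axis) of the 17 probe sets, 1 point per tumour, with Notch1+/+ in blue, Notch1f/f in orange and a short line at each group mean. The groups separate for 2 probe sets of Arpp21 and 2 of Xrcc6, while Rag2 spans 13.5 to 463.

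The RAG recombinase pair differed in how much its genes varied. Rag1 was strong in every tumour, with intensities of 2958, 2125 and 2527 in Notch1+/+ tumours 1 to 3 and of 1992, 2854 and 2155 in Notch1f/f tumours 1 to 3. The groups overlapped over most of their ranges, and the highest tumour had 1.49 times the intensity of the lowest. The log2 difference of Rag1 was -0.12 ± 0.19 (SE), with a 95% interval from -0.55 to 0.30 (limma adjusted p = 0.800). The residual spread of Rag1 lay at the 38.2nd percentile of all tested probe sets.

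Rag2, read by 1 probe set, had intensities of 224, 123 and 463 in the Notch1+/+ tumours. In the Notch1f/f tumours it had 83.1, 180 and 13.5. Notch1f/f tumour 2 lay above Notch1+/+ tumour 2, so the groups overlapped, and the highest tumour had 34.3 times the intensity of the lowest. The means were 270.0 ± 174 (SD, n = 3) in Notch1+/+ and 92.3 ± 83.8 in Notch1f/f tumours. The log2 difference was -1.60 ± 0.66, with a 95% interval from -3.09 to -0.11 (unadjusted p = 0.0381 and adjusted p = 0.348 in limma; exact permutation p = 0.2). The smallest two-sided exact p that 3 tumours in each group allow is 0.1. The residual spread of Rag2 was larger than that of 99.2% of tested probe sets. The difference rested on single tumours, at -0.85 when Notch1f/f tumour 3 was left out and -2.22 when tumour 2 of that group was. It was -1.96 with a pseudocount of 1 and -1.12 with 64.

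The ratio of the 2 recombinase genes within an array is given as a description. It is 1 of 4 such ratios, all chosen after the values were seen and so given without a test. All 4 were taken on the log2 scale of the group comparison, which adds a pseudocount to each intensity. This pseudocount scale understates differences of dim probe sets. On it, Rag2 minus Rag1 was -3.63, -3.94 and -2.41 in the Notch1+/+ tumours and -4.34, -3.87 and -6.20 in the Notch1f/f tumours. Notch1f/f tumour 3 stood lowest, although its Rag1 intensity of 2155 lay inside the range of the others. The mean ratio differed by -1.48 between the groups, which overlapped. This value compares tumours for the same pair of probe sets and does not compare the levels of the genes.

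Genes flanking the recombinase locus had values that were level or higher in Notch1f/f tumours. Traf6, the signalling ubiquitin ligase next to Rag1, had 226, 128 and 107 in Notch1+/+ and 430.5, 229 and 417 in Notch1f/f tumours, with no overlap between the groups (log2 difference 1.15 ± 0.33, limma adjusted p = 0.274). Iftap, on the Rag2 side, had 255 ± 112 (SD, n = 3) against 304 ± 128, the second value being that of Notch1f/f tumours. Commd9 had 213, 159 and 187 against 306, 164 and 276. Prr5l was not tested, since it did not exceed 7.4 on any array. All 3 tested neighbours had a log2 difference above 0, and of these Iftap was measured with 3 tested probe sets of which 2 had that sign.

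The tumour profiles closest to those of the recombinase genes came from other loci. Likeness was the root mean square difference between log2 profiles over the 6 tumours, each centred on its own mean. For Rag1 the closest were Cdk6, a G1 kinase, at 0.04, Chic2 also at 0.04 and Arid4b, dim at intensities of 9 to 19.1, at 0.05. For Rag2 they were Sos1, a Ras exchange factor, at 0.43, Acvr1, an activin receptor, at 0.48, and Nabp1, a single-stranded DNA binding protein, at 0.50. Nabp1 had 166, 110 and 190 in Notch1+/+ and 34.9, 198 and 13.7 in Notch1f/f tumours. As with Rag2, Notch1f/f tumour 3 was lowest. Notch1f/f tumour 2 lay above every Notch1+/+ tumour for Nabp1, whereas for Rag2 it lay inside their range. With this many probe sets and 6 tumours, such closeness is a description only.

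Dntt, the template-free polymerase that diversifies joints, ordered the tumours the same way on all 3 of its probe sets. The brightest had 1767, 859 and 2056 in the Notch1+/+ tumours and 1542, 3387 and 2646 in the Notch1f/f tumours. Notch1f/f tumours 2 and 3 were highest and Notch1+/+ tumour 2 was lowest, and Notch1f/f tumour 1 lay below 2 of the 3 Notch1+/+ tumours. The log2 difference was 0.71 ± 0.36 (95% interval -0.11 to 1.53, limma adjusted p = 0.416, exact permutation p = 0.3). The second, whose suffix (_x_at) marks probes that can detect other transcripts, gave 1.08 ± 0.50 (adjusted p = 0.385), and the dimmest gave 0.48 ± 0.32 (adjusted p = 0.528). All 3 differences were smaller without Notch1+/+ tumour 2, at 0.33, 0.41 and 0.26 from the brightest to the dimmest. They were 0.46, 0.88 and 0.25 without Notch1f/f tumour 2.

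Rag2 and Dntt were also set against each other within tumours, a pair chosen after their opposite differences were seen. On the pseudocount scale, Rag2 minus Dntt was -2.89, -2.65 and -2.11 in Notch1+/+ tumours and -3.97, -4.11 and -6.50 in Notch1f/f tumours. All 3 Notch1f/f tumours lay below all 3 Notch1+/+ tumours. The mean ratio differed by -2.31. The profiles closest to Dntt were those of Fggy at 0.16, Akr1e1 at 0.20 and Arl3, a small GTPase, at 0.23. Fggy and Akr1e1 were dim, at 6.6 to 60 and 1.4 to 32.8 over the arrays.

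**Figure D2:**
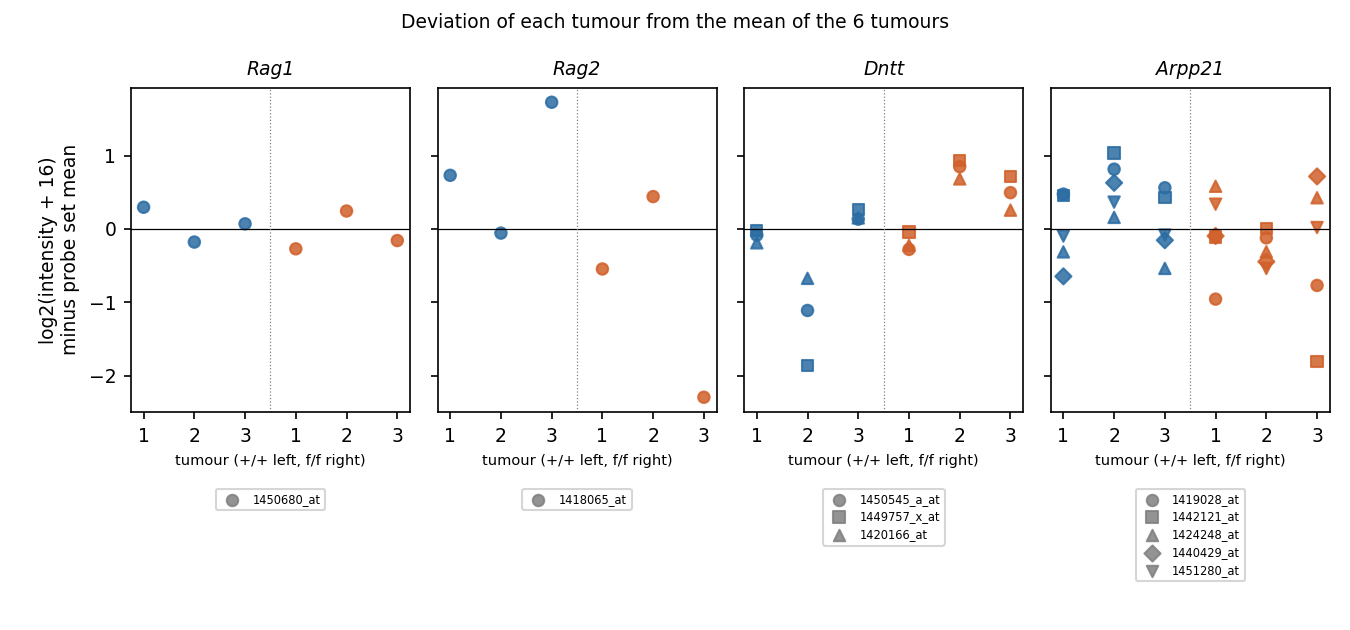
Log2(intensity + 16) of Rag1, Rag2, Dntt and Arpp21 in each tumour after subtracting the mean of the 6 tumours, with Notch1+/+ tumours 1 to 3 on the left of each panel and Notch1f/f tumours 1 to 3 on the right, and 1 marker shape per probe set. The 3 Dntt probe sets place the tumours in 1 order, whereas the 5 Arpp21 probe sets do not, and Rag2 is lowest in Notch1f/f tumour 3.

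Arpp21 gave different answers on its 5 probe sets. On the brightest, the Notch1+/+ tumours had 888, 1128 and 944 and the Notch1f/f tumours 319, 582 and 365.5. The groups did not overlap, and the difference was larger than the spread within either group. The mean was 2.35-fold lower in Notch1f/f tumours, a log2 difference of -1.23 ± 0.24 (95% interval -1.79 to -0.68, limma adjusted p = 0.165, exact permutation p = 0.1). It was the smallest adjusted p among the members. Under the alternatives it ran from 0.0627, without Notch1f/f tumour 2, to 0.507, without Notch1f/f tumour 1.

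The second brightest had 214, 328 and 211 in Notch1+/+ and 139.5, 152.5 and 32.0 in Notch1f/f tumours, also without overlap. Its log2 difference of -1.28 ± 0.46 (limma adjusted p = 0.304) was -0.69 without Notch1f/f tumour 3. The third brightest pointed the other way, with 96.1, 139 and 79.9 in Notch1+/+ and 192, 96.2 and 171 in Notch1f/f tumours (log2 difference 0.46 ± 0.31, limma adjusted p = 0.527). Notch1f/f tumours 1 and 3 were highest there, and the groups overlapped. The fourth and the dimmest had log2 differences of 0.12 ± 0.40 and -0.12 ± 0.29, and both changed sign when single tumours were left out. Averaged over its 5 probe sets, Arpp21 had a log2 difference of -0.41 ± 0.21 (limma adjusted p = 0.406). That value came from a separate fit of gene means, adjusted over 10916 genes.

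The brightest and the third brightest probe set were set against each other because they had opposite signs. Within an array, the log2 ratio of the former to the latter on the pseudocount scale was 3.01, 2.88 and 3.32 in the Notch1+/+ tumours. In the Notch1f/f tumours it was 0.69, 2.41 and 1.03. All 3 Notch1f/f tumours were lower, with tumour 2 nearest the Notch1+/+ group (mean difference -1.70). RefSeq lists start windows of Arpp21 at 9 positions. Which transcripts each probe set reads was not looked up, so no isoform is assigned. The profiles closest to the brightest Arpp21 probe set were those of Mtap, a methylthioadenosine phosphorylase, at 0.10, Septin8 at 0.11 and Pnp, a purine nucleoside phosphorylase, at 0.12. Septin8 was dim in the Notch1f/f tumours, at 7.1, 24.8 and 14.4. Pnp had 467, 682 and 639 in Notch1+/+ and 184.5, 311 and 200 in Notch1f/f tumours, so its groups were separate too (limma adjusted p = 0.152).

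Among the Ku and DNA-PK genes, both probe sets of Xrcc6 (Ku70) had groups that did not overlap, and those of Xrcc5 and Prkdc overlapped. Its bright probe set had 4179, 4000 and 4968 in the Notch1+/+ tumours and 2842, 2717 and 3417 in the Notch1f/f tumours. Every Notch1f/f tumour lay below every Notch1+/+ tumour. The log2 difference was -0.55 ± 0.15, or 1.46-fold lower (95% interval -0.89 to -0.20, limma adjusted p = 0.267, exact permutation p = 0.1). The dim one had 185, 184.5 and 126 in Notch1+/+ and 80.3, 41.3 and 20.9 in Notch1f/f tumours, again without overlap. Its log2 difference was -1.60 ± 0.36 (limma adjusted p = 0.202), -1.95 with a pseudocount of 1 and -1.06 with 64. In the separate fit of gene means, adjusted over 10916 genes, the mean of both Xrcc6 probe sets gave -1.08 ± 0.19 (limma adjusted p = 0.125).

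Xrcc5 (Ku80), the partner of Xrcc6 in the Ku ring, had 161, 211 and 216 in Notch1+/+ and 171.5, 186 and 157 in Notch1f/f tumours. The groups overlapped, with a log2 difference of -0.17 ± 0.22 (95% interval -0.67 to 0.33, limma adjusted p = 0.763). On the pseudocount scale, the log2 ratio of Xrcc6 to Xrcc5 was 4.57, 4.15 and 4.42 in Notch1+/+ tumours. It was 3.93, 3.76 and 4.31 in Notch1f/f tumours, a mean difference of -0.38 with overlap between the groups. A difference between the 2 subunits was not shown. Prkdc, the DNA-PK catalytic subunit, had 111, 175 and 183 in Notch1+/+ and 111, 136.5 and 64.3 in Notch1f/f tumours. Its log2 difference was -0.55 ± 0.31 (limma adjusted p = 0.456) and -0.28 without Notch1f/f tumour 3, the lowest tumour.

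The ligase that closes the joint did not separate the groups. Lig4 had 332, 268 and 397 in Notch1+/+ and 540, 476 and 276 in Notch1f/f tumours. Notch1f/f tumour 3 lay at the low end while the other two were highest, and the log2 difference was 0.32 ± 0.28 (95% interval -0.31 to 0.96, limma adjusted p = 0.626). Leaving out Notch1f/f tumour 1 gave 0.14 and leaving out tumour 3 of that group gave 0.60, and the value was 0.18 without Notch1+/+ tumour 2. Xrcc4, the scaffold of the ligase, was among the steadiest members. Its brighter probe set had 78.6 ± 4.24 (SD, n = 3) in Notch1+/+ and 85.3 ± 16.7 in Notch1f/f tumours (log2 difference 0.09 ± 0.24). The dimmer one had 65.9 ± 0.608 against 58.8 ± 10.8 (log2 difference -0.14 ± 0.23), with limma adjusted p-values of 0.891 and 0.817. The intervals, -0.45 to 0.62 and -0.67 to 0.39, leave room for a moderate difference in either direction.

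**Figure D3:**
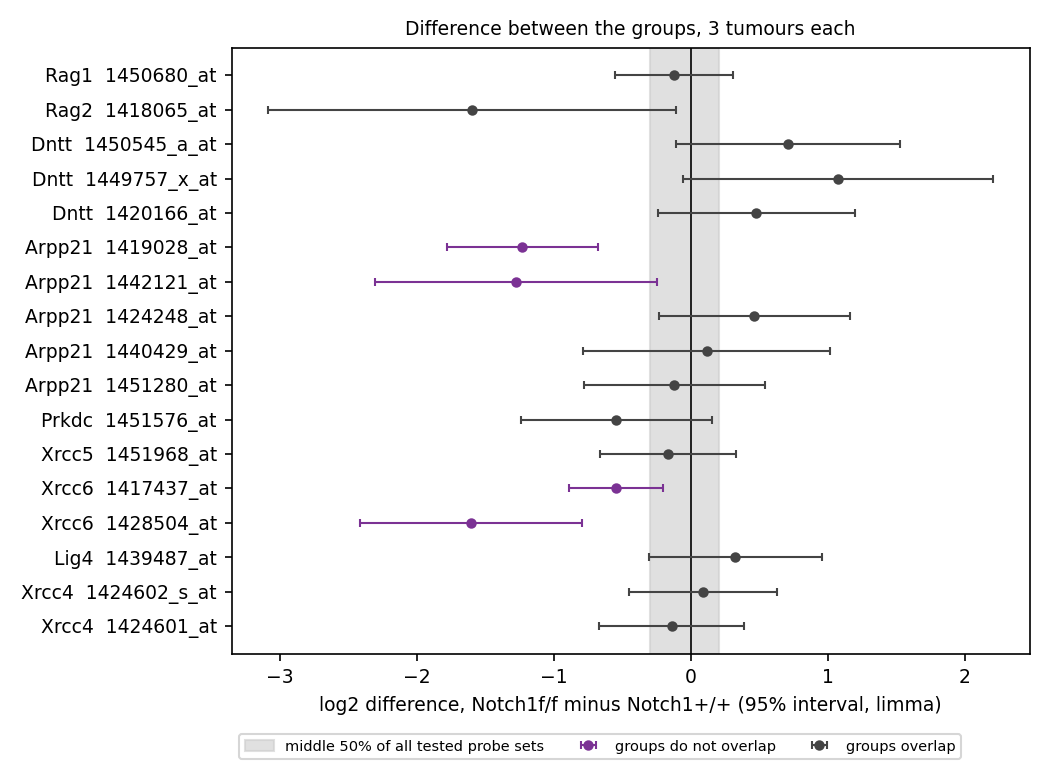
Log2 difference (Notch1f/f minus Notch1+/+, 3 tumours each) of the 17 probe sets with 95% limma intervals, in purple where the groups do not overlap, over a grey band that holds the middle 50% of all tested probe sets. Both Xrcc6 probe sets and 2 of 5 Arpp21 probe sets are purple, from -0.55 to -1.60, and the interval of Rag2 is the widest.

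Tumours 2 and 3 of the Notch1f/f group stood at an end of the range on several probe sets. Notch1f/f tumour 2 had the highest intensity of its group on 11 of the 17 probe sets, including Rag1, Rag2, Prkdc, Xrcc5, all 3 of Dntt and the 2 lower ones of Arpp21. Over all tested probe sets it was highest on 36.4%. Notch1f/f tumour 3 was the lowest of all 6 tumours on 7 of the 17, among them Rag2, Prkdc, Xrcc5 and both of Xrcc4, against 27.2% of all tested probe sets. Probe sets of 1 gene are not independent, and no test was made of these counts. The bright Xrcc6 probe set went the other way, with tumour 3 highest and tumour 2 lowest of the Notch1f/f group. Its log2 difference ran from -0.65 to -0.46 over the alternative runs, and that of the brightest Arpp21 probe set from -1.48 to -1.06.

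The other genes around recombination were followed on lists, each gene by its brightest probe set. No gene of any list passed an adjusted p of 0.05 in limma. For all list counts below, the shares over all tested probe sets are 55.0% with a difference below 0, 10.4% lower and 8.13% higher without overlap, and 7.60% lower and 5.94% higher at an unadjusted p under 0.05. The NHEJ accessory factors showed no common direction, with 3 of 6 tested genes above 0 and 3 below and a median log2 difference of 0.01. None had an unadjusted p under 0.05 or separate groups. Aplf, a Ku-binding end-processing factor, had 39.7 ± 10.9 (SD, n = 3) in Notch1+/+ and 21.1 ± 19.0 in Notch1f/f tumours. Paxx, a Ku partner, had 91.6 ± 6.89 against 133 ± 36.7, although its other probe set had the opposite sign. The polymerase Poll had 33.8 ± 10.9 against 23.2 ± 2.76 and Aptx, which repairs failed ligations, 83.1 ± 8.50 against 97.7 ± 11.9.

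Genes of the response to DNA breaks had mostly lower values in Notch1f/f tumours. Of 12, 10 had a log2 difference below 0, 6 had an unadjusted p under 0.05 in limma, all 6 lower, and 7 had groups that did not overlap, all lower, where 10.4% of all tested probe sets did so. The median was -0.45. Chek2, a checkpoint kinase, had 159, 137 and 115 in Notch1+/+ and 61.6, 78.3 and 59.1 in Notch1f/f tumours (log2 difference -0.89 ± 0.24, limma adjusted p = 0.255). Rad50, of the complex that first binds breaks, had 290, 274 and 333 against 141, 207.5 and 126 (-0.88 ± 0.24, adjusted p = 0.263). Atm, the kinase that signals RAG cuts, had 269.5, 336 and 314 against 165, 247 and 124 (-0.77 ± 0.27, adjusted p = 0.297). Rif1, which protects ends from resection, had 566, 619.5 and 529 against 293, 442 and 160 (-1.01 ± 0.32, adjusted p = 0.293). In each of these 4 genes the lowest Notch1+/+ tumour lay above the highest Notch1f/f tumour, and Notch1f/f tumour 2 was highest of its group.

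Other repair routes had similar medians. The 5 tested genes of alternative end joining had a median of -0.48, with 4 below 0 and 2 without overlap, both lower (10.4% of all tested probe sets), which for 5 genes is a small count. They included Parp1, a break sensor, at 1045 ± 55.4 (SD, n = 3) against 706 ± 182, and Lig3, a ligase, at 169 ± 8.04 against 108 ± 45.6. The other named genes of that list, Lig1 and Xrcc1, had log2 differences of -0.48 and -0.24. The 8 genes of homologous recombination had a median of -0.55, with 7 below 0 and 2 without overlap, both lower, also a small count against 10.4%. Those were Rad54l, a strand-exchange motor, at 323 ± 77.0 against 153 ± 48.3, and Exo1, a resection nuclease, at 234 ± 2.34 against 117 ± 80.9. Palb2 and Rad51c had log2 differences of -0.63 and -0.73.

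Cell cycle genes lay in the same direction. All 21 of its tested genes had a log2 difference below 0, 10 of them without overlap, with a median of -0.50. Over all tested probe sets 55.0% were below 0 and 10.4% were lower without overlap. Cdc6, which loads the replicative helicase, had 657 ± 55.9 against 301 ± 107, Tyms 127 ± 14.3 against 56.3 ± 6.17, Kif11 440 ± 31.2 against 259 ± 38.6 and Mcm3 1869 ± 80.7 against 1097 ± 432. The part of proliferation in the values of Xrcc6, Rad50 or Chek2 was not tested.

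Among cofactors and turnover of the recombinase, 1 of 4 tested genes was above 0 and the median was -0.48. Skp2, the ubiquitin ligase subunit that targets RAG2 for removal at entry into S phase, had 282, 574 and 639 in Notch1+/+ and 227, 291 and 167 in Notch1f/f tumours. The groups overlapped slightly (log2 difference -1.02 ± 0.33, limma adjusted p = 0.295). Cdk2, whose activity marks RAG2 for that removal, had 619 ± 146 against 478 ± 122. Dcaf1 had 293 ± 16.5 against 198 ± 76.4, and Hmgb2, a DNA-bending cofactor of RAG, 2439 ± 123 against 2699 ± 309, with 1 of its 3 probe sets of opposite sign.

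The list of transcription factors known to act at the Rag and Dntt genes also held Id2 and Id3, which are inhibitors of E proteins. It had 12 of 16 differences above 0, with Id2 and Id3 among these, and a median of 0.32. For 6 of the 12, however, the probe sets of the gene differed in sign. Without overlap, 4 were higher and 1 was lower, against 8.13% and 10.4% of all tested probe sets. Foxo1, an activator of Rag transcription, had 341, 238 and 225 in Notch1+/+ and 424, 448 and 536 in Notch1f/f tumours (log2 difference 0.79 ± 0.23, limma adjusted p = 0.274). Ets1 had 2843 ± 378 (SD, n = 3) against 4036 ± 340, and Gata3 288 ± 29.7 against 395 ± 27.4. Myb was the lower one, at 3938 ± 243 against 3105 ± 401. Tcf3, the E protein E2A, was the remaining one without overlap. The directions of Tcf12, Foxp1, Runx1, Satb1, Elf1, Ikzf1 and Ikzf3 are uncertain, because their probe sets differed in sign.

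Genes of the double-positive thymocyte stage, at which the T cell receptor alpha genes are assembled, had no member that passed the test. Of 9 tested, 7 were above 0, with a median of 0.22, but Cd4, Cd8a and Ccr9 among these had probe sets of both signs, and Cd4 was at 0.02. The 4 that were higher without overlap compare with 8.13% of all tested probe sets. Cd69, an activation and selection marker, had 45.8, 39.1 and 19.3 in Notch1+/+ and 97.1, 63.6 and 157 in Notch1f/f tumours (log2 difference 1.23 ± 0.35, limma adjusted p = 0.268). Bcl2l1 had 170 ± 41.8 against 285 ± 32.2 and Cd1d1 237 ± 32.0 against 359 ± 128. Cd8a had 1601 ± 504 against 2567 ± 252 on its brightest probe set, while 2 of its 5 probe sets had the opposite sign.

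**Figure D4:**
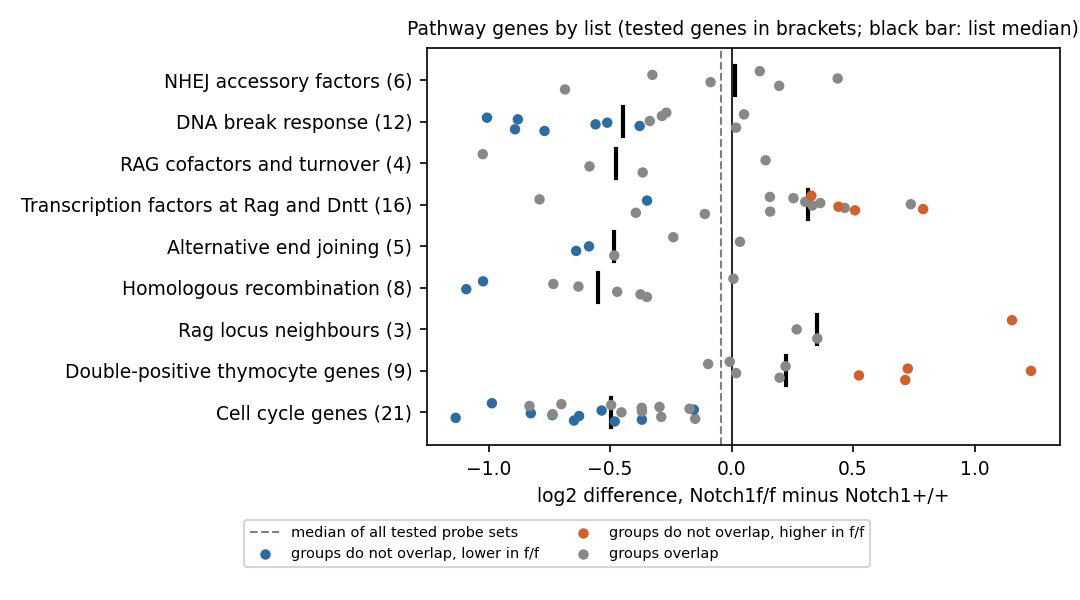
Log2 difference (Notch1f/f minus Notch1+/+) of each tested gene on 9 lists, 1 point per gene on its brightest probe set, with a black bar at the list median and a dashed line at the median of all tested probe sets (-0.04). Points are blue or orange where the groups do not overlap; break response, homologous recombination and cell cycle genes lie mostly to the left, and transcription factors mostly to the right.

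The tumours carried the T cell identity of their label, and the summed intensity of 7 T cell markers was 10964 to 14800 in Notch1+/+ and 14993 to 19888 in Notch1f/f tumours. The floxed gene was detected in all 6 tumours, with Notch1 intensities of 2532 to 3636.5 and 3043 to 3418.5 on the brighter probe set. The dimmer one had 1792.5, 656 and 568 against 2026, 1346 and 2211.5 (log2 difference 1.04, limma adjusted p = 0.319), and the array reads mostly the 3' part of transcripts and does not check the deletion. Pro-B cells also express Rag and Dntt, and the B cell precursor genes Vpreb1 and Igll1 did not exceed 8.0 and 21.1 on any array. B cell markers summed to 82.2 to 92.3 against 122 to 294.5 over 8 genes. All 4 tested ones had a log2 difference above 0, and 2 were higher without overlap (8.13% of all tested probe sets). These were Cd79a, at 7.3, 6.7 and 9.8 against 15, 12.1 and 121, and Cd79b, at 7.6, 26.4 and 18.7 against 37, 64.8 and 52.1. The part of B cells in the values of the members was not tested. Macrophage markers summed to 171 to 750 in Notch1+/+ and 1079 to 1742 in Notch1f/f tumours over 8 genes, 7 of 8 above 0. Dendritic cell markers summed to 24.9 to 48.9 against 37.5 to 118. Neutrophil markers summed to 194 to 322.5 against 110.5 to 181, and fibroblast markers to 1392 to 2545 against 864.5 to 1942. Most of the fibroblast sum was Pdgfrb, whereas Col1a2 had 190, 978 and 53.3 against 13.2, 39.8 and 71.3, and Col3a1 4.5, 200.5 and 164 against 14.7, 27.6 and 9.0. Of 5 endothelial markers 4, of 5 thymic epithelial markers 3 and, of 2 measured erythroid markers, 1 did not exceed 16 anywhere. The control probe set for the 3' part of 18S ribosomal RNA had 64.8 to 125 against 249.5 to 319, while the 3' to 5' ratio of Gapdh was 0.767 to 1.08 against 0.836 to 1.03. The 3' to 5' ratio of Actb was 2.23 in Notch1+/+ tumour 1 and 1.35 to 1.64 in the other 5 tumours. The part of these in the members' values was not tested. In bulk tumours, fewer cells of a type and less RNA per cell cannot be told apart.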

How the data were processed

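The deposited table holds linear signal intensities, and the submitters' processing notes name MAS5 without its version. Each array's mean, after trimming 2% of probe sets from either end, was 100.0 in that table. No detection call was used. Gene symbols came from the platform annotation and were matched through Entrez identifiers to RefSeq (GRCm38.p6), which changed 0 symbols. The 64 control probe sets and those under the 40th percentile of mean log2(intensity + 16) were left out. The comparison used limma 3.58.1 (lmFit, then eBayes with a trend) in R 4.3.3, two-sided, with Benjamini-Hochberg adjustment over all 27022 tested probe sets and no covariate, and the fit was tested on simulated data. Members and lists were chosen with earlier results of these data known. Every member was reported. From each list up to 4 genes with the smallest limma p were named, and for Rag1, Rag2, Dntt and Arpp21 the 3 closest profiles. Tcf3, Cd79a, Cd79b, Col1a2 and Col3a1 were named, and the 4 within-array ratios chosen, after their values were seen. Other genes were also named outside the rule of smallest p. Among them were Vpreb1, Igll1, Pdgfrb, Notch1 and the genes listed for probe sets of both signs. Some genes of the lists are not analysed here. The tumours came from 6 separate mice. The number of arrays limits the precision. Figures used matplotlib 3.10.9.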

Additional observations from a re-analysis of the deposited data

How the results depend on the processing

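No member probe set and no member gene passed an adjusted p of 0.05 in limma under any alternative run. These changed the pseudocount (1 or 64), the filter (none, or the 60th percentile), the scaling (quantile or median), the variance model (no trend, or array weights) and the tumours (each left out once), or averaged the probe sets of a gene. The lowest adjusted p was 0.0627. Over the 17 probe sets, 232 of 238 differences kept their sign. That count includes the filter and no-trend runs, which cannot change a difference and bear only on p-values. The 6 that did not were near 0. The fourth brightest Arpp21 probe set had -0.21 with array weights and ran from -0.21 to 0.46 with 1 tumour left out. The dimmest ran from -0.32 to 0.12, and the brighter of Xrcc4 from -0.037 to 0.20. The number of member probe sets whose groups did not overlap was 4, all lower, under both scalings. The filters could not change this number, since all 17 passed each of them. With 1 tumour left out, which leaves fewer values to separate, it ran from 4 to 7, against 25.5% to 37.3% of all tested probe sets. Of these, 4 to 6 were lower, against 14% to 21.5% of all, and 0 to 3 higher, against 11% to 15.8%. The number was 7 without Notch1f/f tumour 1 or without tumour 2 of that group, where 25.5% and 37.3% of all tested probe sets did not overlap. It was 6 without Notch1+/+ tumour 1, where 34.5% of all did not. No paired analysis was made, since the tumours came from separate mice and the labels give no pairing. Whether dim probe sets were detected was not assessed, which limits values such as the 13.5 of Rag2.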
